A study of Mus musculus with 28 samples.

Results

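Integrin subunits were followed during the conversion of a mouse Pre-B line, C10, into macrophage-like cells. The 9 genes Itgam, Itgax, Itgal, Itgb2, Itga4, Itgb1, Itgb7, Itga5 and Itgav were taken by name from a table of 55450 genes, and all 9 have a mean TPM of at least 0.1 over 12 RNA-seq libraries, which was the minimum for testing and was met by 16415 genes. TPM give the abundance of a transcript, per length, relative to all others in its library. C10 cells are a single line derived from HAFTL cells and carry, in every sample, a transgene for rat C/EBPα fused to the estrogen receptor (C/EBPαER), which enters the nucleus when β-estradiol is added. The 0h libraries are uninduced cells, and the 1h, 12h and 48h libraries are cells given 100 nM β-estradiol together with IL-3 and CSF-1, with 3 biological replicates at each of the 4 time points. The labels do not say whether replicates were separate cultures, so the p-values measure the spread between these libraries. No library had the cytokines without β-estradiol or the same time without either, so the effects of the 3 agents and of time in culture cannot be told apart. Promoter Capture Hi-C (PCHi-C), which lists the restriction fragments that ligate to captured promoter fragments more often than a distance model predicts, was available as 1 list per time point from 2 merged replicates.

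An integrin is a pair of membrane proteins, an α and a β subunit, that binds matrix or a counter-receptor on another cell and links it through talin and kindlins to actin. Integrins with the β2 chain, encoded by Itgb2, are found on leukocytes. Its partners here are Itgal (CD11a, which makes LFA-1, the receptor of ICAM proteins), Itgam (CD11b, which makes Mac-1, the complement receptor of phagocytes) and Itgax (CD11c, of dendritic cells and some macrophages). Itgb1, the common β1 chain, pairs with Itga4 in VLA-4, with the fibronectin receptor chain Itga5 and with Itgav. Itgb7 pairs with Itga4 in the receptor that takes lymphocytes to the gut. Itgam is also in common use as a surface marker of the macrophage state in this system.

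In GRCm38 the genes for 3 of the β2 partners lie on the plus strand of chromosome 7, with Itgal at 127296260 to 127335138, Itgam at 128062640 to 128118491 and Itgax at 128129547 to 128150657. Itgam and Itgax are 11.1 kb apart, and Itgal ends 727.5 kb before Itgam. Itga4 (79255426 to 79333123) and Itgav (83724397 to 83806916) are on chromosome 2, Itgb1 (128685654 to 128733200) on chromosome 8 and Itgb2 (77530252 to 77565708) on chromosome 10, all on the plus strand. Itgb7 (102215995 to 102231944) and Itga5 (103344286 to 103366763) are on the minus strand of chromosome 15. The annotation also holds Gm49368, a coding gene that starts beside Itgam and ends before Itgax, and 68.7% of the exonic bases of Itgam belong to it as well. Reads there can be assigned to either gene. Gm49368 was at 0 TPM at 0h and 1h and at most 0.05 TPM in any later library.

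Of the 9 members, 7 had a promoter in the RefSeq table for GRCm38.p6; Itgal and Itgb2 had none. The 250 bases before the start of transcription are shown, 5′ to 3′ on the gene's strand, for the 3 members that were nearest to 0 TPM in uninduced cells: Itgam at chr7:128062390-128062639, Itgax at chr7:128129300-128129549 and Itgb7 at chr15:102231936-102232185 on the minus strand. Capitals mark GAGGAA on either strand, the core bound by PU.1, an ETS factor of myeloid cells.
Itgam: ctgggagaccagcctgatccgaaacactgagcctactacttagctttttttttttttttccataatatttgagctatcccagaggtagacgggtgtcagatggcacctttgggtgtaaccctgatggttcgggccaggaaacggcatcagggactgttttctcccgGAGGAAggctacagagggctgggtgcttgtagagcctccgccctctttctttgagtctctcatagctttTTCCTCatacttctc
Itgax: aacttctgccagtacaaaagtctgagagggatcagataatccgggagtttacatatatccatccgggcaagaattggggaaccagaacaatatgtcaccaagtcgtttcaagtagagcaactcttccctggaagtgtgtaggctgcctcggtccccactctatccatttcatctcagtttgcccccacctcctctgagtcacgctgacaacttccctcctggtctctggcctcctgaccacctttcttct
Itgb7: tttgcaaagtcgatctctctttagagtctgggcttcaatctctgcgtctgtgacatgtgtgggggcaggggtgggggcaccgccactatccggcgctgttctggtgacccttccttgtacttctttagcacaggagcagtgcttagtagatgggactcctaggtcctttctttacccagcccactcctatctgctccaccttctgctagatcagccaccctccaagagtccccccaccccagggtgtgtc
Itgam holds the letters 2 times, at -84 to -79 on its own strand and at -15 to -10 on the other, counted back from -1 at the last base before the start. Itgax and Itgb7 hold none, and neither does Itga4. Itgav has 2 matches, and Itgb1 and Itga5 have 1 each. In 23.3% of 32851 promoter windows of the same length the letters occur at least once. TTGCNNAA, a C/EBP site written without its first and last bases, occurs in 9.56% of these windows on either strand and in none of the 7 members' windows.

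Depth cannot be read from TPM, and 2 ribosomal RNA genes made up 70.3% to 82.9% of TPM in the libraries, so the TPM left for other genes differed between time points. Over all genes tested, log2 fold changes against 0h had a median of 0.59 at 1h, 0.34 at 12h and -0.18 at 48h. Median-of-ratios scaling, which sets the typical gene equal between libraries, brought these to 0.023, 0.071 and 0.076. Its size factors were 0.84 to 1.03 at 0h, 1.33 to 1.56 at 1h, 1.07 to 1.35 at 12h and 0.63 to 0.75 at 48h. Among the called genes at 48h, 36.9% were higher with TPM as deposited and 52.9% after scaling; at 1h these were 94.5% and 52.7%, and at 12h 74.1% and 52.6%. Values are from deposited TPM, and the scaled value is given where it changes a call. The summed TPM of 11 Pre-B markers went from 299 to 340 at 0h to 26.9 to 38.4 at 48h, and that of 9 macrophage markers from 12.0 to 12.9 to 989 to 1159. Of the 9 macrophage markers, 7 were tested and all 7 were higher at 48h, where 15.9% of all genes were. Their sum at 48h was mostly Mmp12 and Ctsc, with means of 491 and 359 TPM. Mertk was at 0 in every library and Adgre1 at most 0.29 TPM, and neither reached the minimum for testing. Cd14, Fcgr1, Msr1 and Mmp12 were at most 0.06 TPM in each 0h library and reached it only through induced libraries. The rise of all 7 tested markers is thus not independent support. These genes were named after their values were seen. The 8 granulocyte markers summed to at most 0.54 TPM at 0h and at most 17.0 at 12h, the 6 T cell markers to at most 0.33, the 7 megakaryocyte and erythroid markers to at most 0.2, and the 4 mast cell and basophil markers were at 0 in every library. More cells with a transcript and more transcript per cell cannot be told apart in these bulk libraries.

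By the limma test on log2(TPM + 0.1), with p-values adjusted over all 16415 genes and a threshold of 0.05, 7 of the 9 subunits rose at 12h and none fell, where 22.3% of all genes tested were called higher and 7.82% lower. At 48h 7 of the 9 were higher than at 0h and none lower, against 15.9% of all genes called higher and 27.2% called lower. At 1h only Itgal and Itga4 were higher, in a comparison where 24.1% of all genes were called higher and 1.41% lower. From 12h to 48h Itgam rose and Itgal fell, against 4.1% of all genes called higher and 31.7% called lower. On median-of-ratios scaled TPM 2 members were higher and none lower at 1h, against 5.43% and 4.87% of all genes; 7 were higher and 1 lower at 12h, against 16.0% and 14.4%; 8 were higher and none lower at 48h, against 24.6% and 21.9%; and 5 were higher and 1 lower from 12h to 48h, against 10.6% and 11.9%. The 3 libraries of a member lay above all 3 at 0h for 2 members at 1h, 7 at 12h and 6 at 48h, where 40.8%, 30.6% and 19.2% of all genes did so. For 1 member at 1h and none later they lay below, against 3.28%, 12.4% and 30.8% of all genes. At 48h they lay above those of 12h for 1 member and below for 2, against 5.81% and 39.2%. The 9 had a median log2 fold change of 0.46 at 1h, of 1.90 at 12h and of 1.42 at 48h, where the medians of all genes were 0.59, 0.34 and -0.18. After scaling the members' medians were -0.024, 1.68 and 1.83, and those of all genes 0.023, 0.071 and 0.076. The comparisons with 0h share the same 3 uninduced libraries. Itgam and Itgax passed the minimum of 0.1 TPM only through their 12h and 48h libraries.

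**Figure D1:**
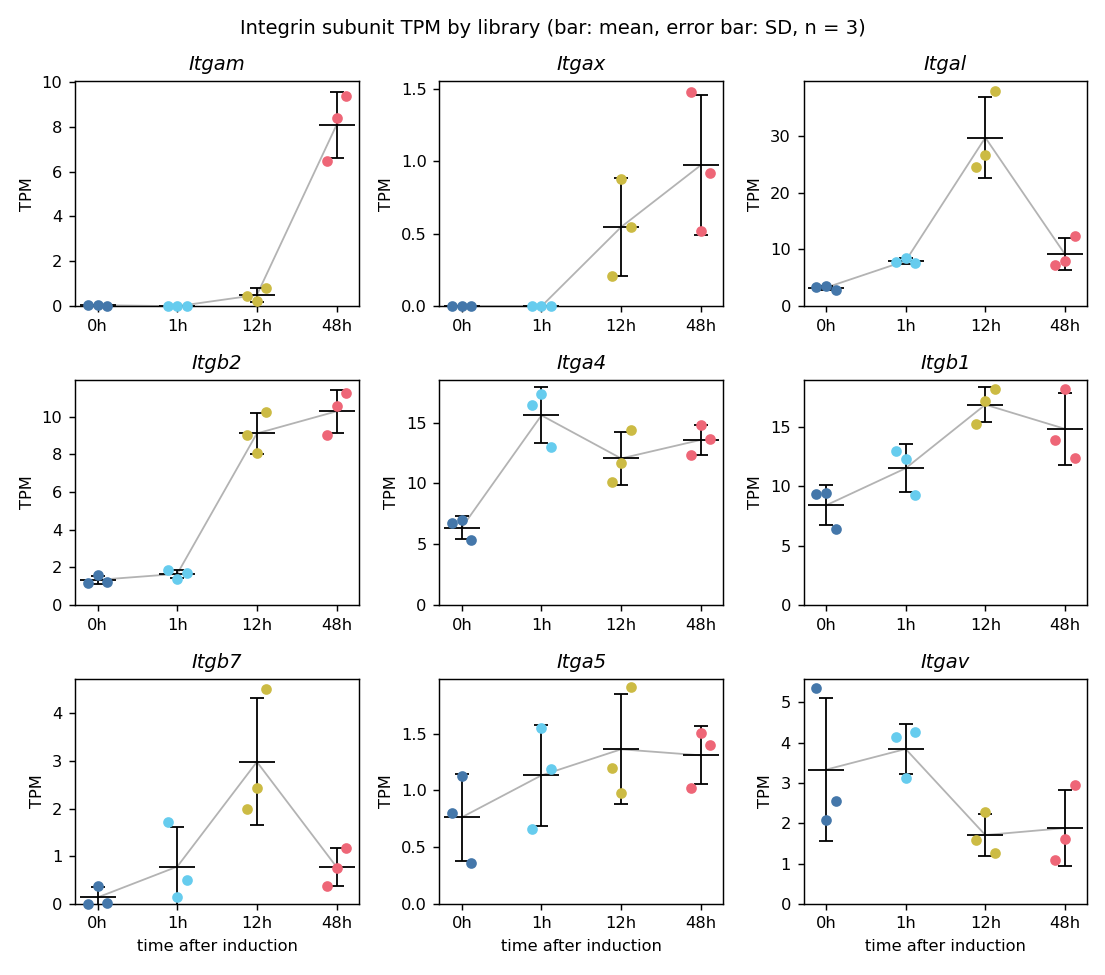
TPM of each of the 9 integrin subunits (vertical axes, each from 0 with its own scale) in the 12 libraries by hours of induction (horizontal axes); points are libraries, bars the mean and error bars the SD of 3. Itgam was near 0 up to 12h and between 6.47 and 9.38 TPM at 48h, whereas Itgal and Itgb7 had their highest libraries at 12h.

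Itgam, the α chain of Mac-1, was nearly silent until late in the conversion. The 0h libraries had 0.07, 0.05 and 0.03 TPM and the 1h libraries 0, 0 and 0.01. At 12h they had 0.45, 0.24 and 0.82 TPM. The 48h libraries reached 6.47, 8.37 and 9.38 TPM, and the 4 time points did not overlap. The log2 fold change against 0h was 1.90 at 12h (standard error 0.36, limma, adjusted p = 0.00206) and 5.76 at 48h (standard error 0.36, limma, adjusted p = 2.02e-07). From 12h to 48h it rose by a further 3.86 (limma, adjusted p = 1.51e-05). Itgam entered testing only through its 12h and 48h libraries, so these p-values are not independent support for the rise. At 1h every library lay below the 0h libraries, with a log2 fold change of -0.53 that did not pass (limma, adjusted p = 0.291). It passed with a pseudocount of 0.01 and when only the 6 libraries compared were fitted, with adjusted p from 0.0194 to 0.791 over 15 alternatives. The size of the 48h change depends on the 0.1 added, and it was 3.10 with 1 added and 7.11 with 0.01 added.

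Itgax, the α chain encoded next to Itgam, was listed at 0 in each of the 6 libraries of 0h and 1h. It had 0.21, 0.88 and 0.55 TPM at 12h and 1.48, 0.52 and 0.92 at 48h, so both later time points lay above the uninduced cells and overlapped each other. No fold is given against libraries at 0. The test against 0h passed at 12h (limma, adjusted p = 0.00184) and at 48h (limma, adjusted p = 0.000124). Itgax entered testing only through the 12h and 48h libraries, and its libraries at 0 add no spread to the estimate. These p-values are thus not independent support for the rise. Between 12h and 48h the log2 difference of 0.78 did not pass (limma, adjusted p = 0.225), but on median-of-ratios scaled TPM it was 1.44 (limma, adjusted p = 0.0468).

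Itgal, the α chain of LFA-1, had risen by 1h and fell again after 12h. The uninduced libraries had 3.39, 3.59 and 2.87 TPM, and those at 1h 7.76, 8.57 and 7.65. Its highest libraries were at 12h, with 24.57, 26.59 and 37.89 TPM, followed by 7.19, 7.92 and 12.35 at 48h. Every later library lay above every 0h library, and the 48h libraries lay between those of 0h and 12h. The log2 fold change against 0h was 1.26 at 1h (standard error 0.23, limma, adjusted p = 0.00294), 3.12 at 12h (limma, adjusted p = 2.29e-06) and 1.42 at 48h (limma, adjusted p = 0.000346). After scaling the 1h value was 0.61 (limma, adjusted p = 0.0388). From 12h to 48h it fell by 1.70 on the log2 scale (limma, adjusted p = 0.000189); on median-of-ratios scaled TPM the fall was smaller, -0.95 (limma, adjusted p = 0.00165).

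Itgb2, the β2 chain that all 3 of these α chains need to reach the surface, was higher at 12h and 48h than at 0h. It had 1.17, 1.60 and 1.23 TPM at 0h and 1.85, 1.40 and 1.71 at 1h. At 12h the libraries had 9.02, 8.06 and 10.24 TPM and at 48h 9.01, 10.56 and 11.27, with overlap between these 2 time points and none with the earlier ones. The log2 fold change was 2.69 at 12h (standard error 0.19, limma, adjusted p = 1.69e-06) and 2.86 at 48h (standard error 0.19, limma, adjusted p = 3.31e-07). The step from 12h to 48h was 0.17 (limma, adjusted p = 0.515), and 0.92 on median-of-ratios scaled TPM (limma, adjusted p = 0.00323).

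Shares within a library do not depend on the scaling between libraries. Among the 3 β2 partners, Itgal made up 98.5% ± 0.50 (SD, n = 3) of the summed TPM at 0h, 99.96% at 1h and 96.6% ± 0.72 at 12h. At 48h it made up 49.7% ± 4.17, Itgam 44.6% ± 4.50 and Itgax 5.64% ± 3.61 (SD, n = 3 each). Itgam had been 1.48% ± 0.50 at 0h and 1.58% ± 0.64 at 12h, so its share changed between 12h and 48h. The log2 ratio of Itgam to Itgal, with 0.1 added to each, was -4.36, -4.62 and -4.51 at 0h and -0.15, 0.079 and -0.39 at 48h. The groups did not overlap, and the difference was 4.34 (exact permutation test, two-sided p = 0.1, which is the smallest value that 3 against 3 can give). The sum of the 3 α chains over Itgb2 was 0.46 lower on the log2 scale at 48h than at 0h (mean log2 ratio 0.80 against 1.27), again without overlap (two-sided exact permutation test, p = 0.1). At the times between, which were not tested, its mean log2 ratio was 2.21 at 1h and 1.72 at 12h, both above that at 0h. The mean log2 ratio of Itgam to Itgal was -6.29 at 1h and -5.72 at 12h, both below that at 0h. Itgb2 transcripts were 13.7% ± 2.45 of the β subunits measured at 0h and 40.0% ± 4.99 at 48h, and Itgb1 85.1% ± 3.34 and 57.1% ± 6.38 (SD, n = 3 each).

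**Figure D2:**
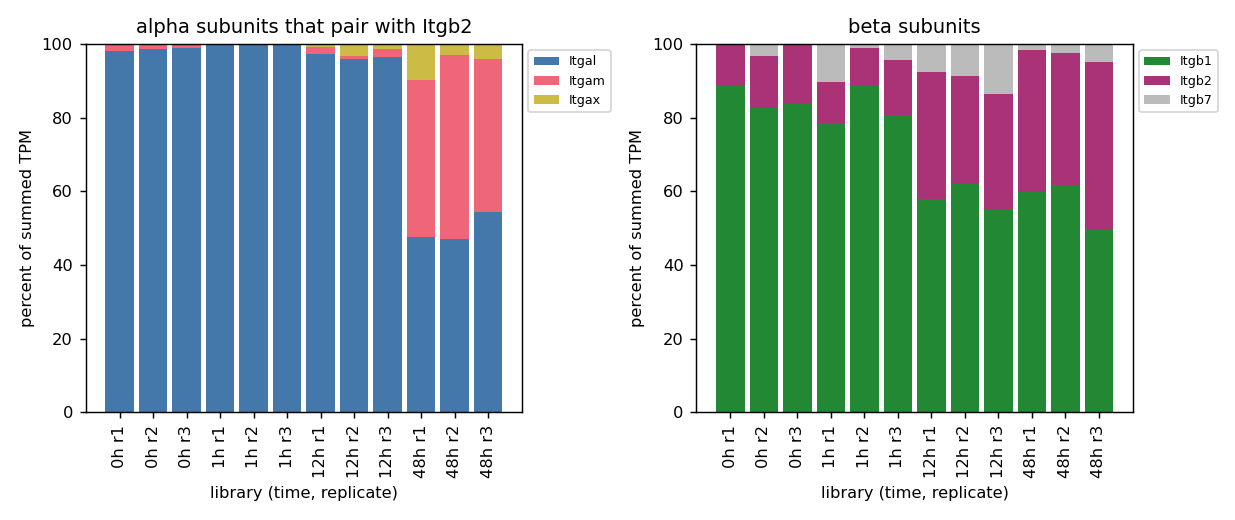
Percent of summed TPM (vertical axes) in each of the 12 libraries (horizontal axes, hours and replicate) taken by the 3 α subunits that pair with Itgb2 (left) and by the 3 β subunits (right). Itgal fills nearly the whole bar through 12h and 49.7% on average at 48h, while the Itgb2 part of the β bar widens from 13.7% at 0h to 31.5% at 12h and then 40.0% at 48h.

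Itga4, the α chain of VLA-4, had also risen by 1h. It had 6.77, 7.03 and 5.32 TPM at 0h and 16.45, 17.35 and 13.00 at 1h. The later libraries had 10.08, 11.68 and 14.41 TPM at 12h and 12.30, 14.77 and 13.67 at 48h. The libraries of each later time point lay above all uninduced ones. The log2 fold change was 1.28 at 1h (standard error 0.19, limma, adjusted p = 0.000931), 0.90 at 12h (limma, adjusted p = 0.0039) and 1.09 at 48h (limma, adjusted p = 0.000589). Scaling changed the order of these but no call, with 0.62 at 1h (limma, adjusted p = 0.00764), 0.57 at 12h and 1.50 at 48h; from 12h to 48h it gave 0.93 (limma, adjusted p = 0.00024) in place of 0.18 (limma, adjusted p = 0.489).

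Itgb1, the β1 chain, was the most abundant of the 9 at 0h by mean TPM, with 9.34, 9.39 and 6.44 TPM, and its libraries overlapped those of Itga4. It had 12.99, 12.31 and 9.23 TPM at 1h, 15.24, 17.16 and 18.19 at 12h and 13.92, 18.22 and 12.34 at 48h. The 12h and 48h libraries lay above those of 0h and the 1h libraries overlapped them. The increase was 1.02 on the log2 scale at 12h (limma, adjusted p = 0.00401) and 0.82 at 48h (standard error 0.21, limma, adjusted p = 0.00829). At 12h the call was lost, at 0.80 (limma, adjusted p = 0.0535), when TPM were rescaled without the 20 most abundant genes. The 1h difference of 0.46 did not pass (limma, adjusted p = 0.134) and was -0.20 on median-of-ratios scaled TPM (limma, adjusted p = 0.535). The step from 12h to 48h was -0.20 (limma, adjusted p = 0.501), and 0.55 after that scaling, which passed (limma, adjusted p = 0.0424).

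Itgb7, the β chain of the gut-homing receptor, was low and variable. It had 0, 0.38 and 0.02 TPM at 0h, 1.71, 0.14 and 0.49 at 1h, 2.00, 2.44 and 4.50 at 12h and 0.38, 0.76 and 1.18 at 48h. Each 12h library lay above every other library of the gene, while those at 0h touched those at 48h at 0.38 TPM. The log2 fold change at 12h was 4.02 (standard error 0.76, limma, adjusted p = 0.00211). Its size depends on the 0.1 added, and it was 1.78 with 1 added and 5.84 with 0.01 added. At 48h it was 2.17 (limma, adjusted p = 0.0363), a call lost in 8 of 15 alternatives (adjusted p from 0.0107 to 0.148). Without 0h replicate 1 it was 1.75 (limma, adjusted p = 0.129), without 0h replicate 3 1.88 (limma, adjusted p = 0.123), without 48h replicate 2 2.13 (limma, adjusted p = 0.0907) and without 48h replicate 3 1.84 (limma, adjusted p = 0.12). At 1h the difference of 1.83 did not pass (limma, adjusted p = 0.0967), although it did without 0h replicate 2, at 2.54 (limma, adjusted p = 0.0411), and without 1h replicate 2, at 2.53 (limma, adjusted p = 0.049). The log2 ratio of Itgb7 to Itgb1 was 1.36 higher at 48h than at 0h, but the libraries overlapped (two-sided exact permutation test, p = 0.3).

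Itga5, the α chain of the fibronectin receptor, stayed near 1 TPM, with 0.80, 1.13 and 0.36 at 0h, 0.66, 1.55 and 1.19 at 1h, 1.20, 0.98 and 1.91 at 12h and 1.02, 1.51 and 1.40 at 48h. The libraries of all 4 time points overlapped. Its log2 difference at 48h was 0.80 and did not pass (limma, adjusted p = 0.138); on median-of-ratios scaled TPM it was 1.21 and did (limma, adjusted p = 0.0196). The log2 ratio of Itga5 to Itga4 differed by -0.28 between 48h and 0h, within the spread of overlapping libraries (two-sided exact permutation test, p = 0.5).

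Itgav, an α chain of receptors for vitronectin and other proteins with an RGD motif, was the only member with a lower mean at 12h and 48h than at 0h. It had 5.37, 2.08 and 2.54 TPM at 0h, 4.15, 3.12 and 4.26 at 1h, 1.58, 2.28 and 1.26 at 12h and 1.09, 1.61 and 2.94 at 48h, with overlap between 0h and each other time point. The log2 difference of -0.84 at 12h did not pass (limma, adjusted p = 0.138), whereas the scaled value of -1.16 did (limma, adjusted p = 0.04). At 48h it was -0.78 (limma, adjusted p = 0.142). Without 48h replicate 3, the library with the most TPM outside the 20 most abundant genes at that time (94692 against 58342 and 65622), it was -1.15 and passed (limma, adjusted p = 0.04).

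**Figure D3:**
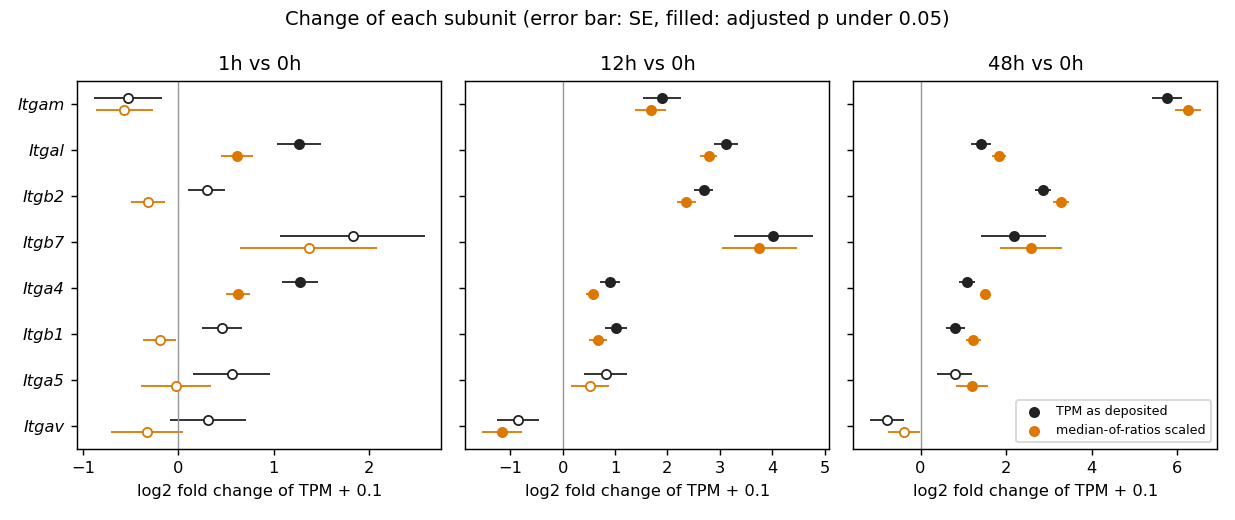
Log2 fold change of TPM + 0.1 against 0h (horizontal axes) for 8 subunits at 1h, 12h and 48h, with TPM as deposited in black and on median-of-ratios scaled TPM in orange; error bars are standard errors and filled points passed an adjusted p of 0.05. Itgax is not drawn since it was listed at 0 at 0h. Itgam has the largest value at 48h, 5.76, and Itgb7 the largest at 12h, 4.02. The 12h value of Itgb7 depends on the 0.1 added. With 1 added it was 1.78, where Itgal at 12h was at least 2.79 over its alternatives.

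The order of the 9 levels, in TPM per library, changed over the course. At 0h the means ran from Itgb1 (8.39) and Itga4 (6.37) through Itgav (3.33) and Itgal (3.28) to Itgb2 (1.33), Itga5 (0.763), Itgb7 (0.133), Itgam (0.050) and Itgax (0). Among neighbours in that order, Itgal lay apart from Itgb2, Itgb2 from Itga5 and Itgam from Itgax, and the other 5 pairs overlapped. At 1h Itga4 led with a mean of 15.6 TPM and lay above Itgb1 in every library. At 12h Itgal led with 29.7 ± 7.18 (SD, n = 3), above Itgb1 at 16.9 ± 1.50. At 48h Itgb1 (14.8) and Itga4 (13.6) overlapped at the top, Itgb2 (10.3), Itgal (9.15) and Itgam (8.07) overlapped in turn below them, and Itgav, Itga5, Itgax and Itgb7 followed at means between 0.773 and 1.88 TPM. The gap between Itgam and Itgav was clear of overlap.

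Over the 12 libraries, the genes with the most similar log2(TPM + 0.1) were found for each member among tested genes with a mean of at least 1 TPM. The coefficients describe 4 time points of 3 libraries that share their induction, scaling and ribosomal share, and have no p. For Itgam they were Irgm1 (Pearson r = 0.996), Ifit3 (0.989) and Ifit3b (0.988), all known as interferon-induced genes. For Itgb2 they were Rab44 (0.990), Csf1r (0.990), the receptor of CSF-1, and Pstpip2 (0.989). Itgax was most like Lcp2 (0.969), Cd300ld (0.963) and Ccr1 (0.959), the last a chemokine receptor of myeloid cells. For Itgal they were Id1 (0.987), Flna (0.985), the actin crosslinker filamin A, and Abcc1 (0.984). Itgb1 was closest to Cdc42 (0.983), a GTPase that organises actin, Plgrkt (0.963) and Msn (0.955), which encodes moesin. Itga4 had Gm47578 (0.970), Zeb2 (0.965) and Arid4b (0.963), and Itgb7 had Fez2 (0.939), Fndc3b (0.933) and Adap1 (0.927). The values were lower for Itga5 (1600012H06Rik, 0.885, Ctps2, 0.883, and Abi1, 0.869) and Itgav (Pigt, 0.880, Tagap1, 0.870, and Zbtb14, 0.859). Between members the highest coefficients were 0.931 for Itgb2 with Itgax, 0.875 for Itgb7 with Itgal and 0.859 for Itgax with Itgam, and the lowest was -0.71 for Itgav with Itgb2.

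The other 18 integrin subunits and relatives were mostly at or near 0, and only 4 reached the minimum of 0.1 TPM. At 48h, when 15.9% of all genes were called higher, 2 of the 4 rose: Itga1, a collagen receptor chain, with 0.20, 0.17 and 0.20 TPM at 0h and 0.92, 1.71 and 1.08 at 48h, and Itga8, at most 0.02 TPM at 0h and 0.50, 1.07 and 0.98 at 48h. Itga8 reached the minimum only through its 12h and 48h libraries, so its place in this count is not independent support. Itga6, the laminin receptor chain that pairs with Itgb1, was as abundant as several members, with 8.52, 7.38 and 6.84 TPM at 0h, 4.16, 3.53 and 3.43 at 12h and 8.13, 6.11 and 4.92 at 48h. It fell by 1.01 on the log2 scale at 12h (limma, adjusted p = 0.00263), and at 48h the difference was -0.27 (limma, adjusted p = 0.308). These 3 genes fall outside the rule for naming and were chosen after their values were seen. Itgad, the fourth β2 partner, had at most 0.40 TPM in any library.

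Among 20 ligands of integrins, 7 were tested; at 48h 5 rose and 2 fell, where 15.9% of all genes rose and 27.2% fell. On median-of-ratios scaled TPM 5 rose and 1 fell, where 24.6% and 21.9% of all genes did so. Thbs1, the matrix protein thrombospondin 1, had 0.03, 0 and 0.01 TPM at 0h and 43.72, 51.47 and 57.56 at 48h, a log2 fold change of 8.81 (limma, adjusted p = 2.22e-10). Spp1, osteopontin, was listed at 0 in every 0h library and had 2.13, 2.56 and 3.84 TPM at 48h (limma, adjusted p = 3.11e-07). Both were at most 0.05 TPM in the 0h and 1h libraries and reached the minimum of 0.1 TPM only through those of 12h and 48h. Their p-values and their places among the 5 that rose are thus not independent support. The size of the Thbs1 change also depends on the 0.1 added. The ICAM proteins that LFA-1 and Mac-1 bind went in both directions. Icam1 rose from 0.91, 1.22 and 0.99 TPM at 0h to 3.37, 3.92 and 4.92 at 48h (log2 fold change 1.86, limma, adjusted p = 5.29e-05), and Icam2 fell from 3.96, 3.65 and 3.23 to 1.77, 1.81 and 1.33 (log2 fold change -1.10, limma, adjusted p = 0.00774).

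Of 27 proteins that activate integrins or tie them to actin, 21 were tested, and 6 were higher at 48h, 4 lower and 11 did not pass, against 15.9% of all genes higher and 27.2% lower; after scaling 11 were higher and 4 lower, against 24.6% and 21.9%. Skap2, an adaptor in integrin activation of myeloid cells, had 2.89, 2.91 and 2.89 TPM at 0h and 13.04, 18.30 and 12.46 at 48h, an increase of 2.27 on the log2 scale (limma, adjusted p = 6.04e-06). The 3 largest decreases were Parvg, a parvin of blood cells that binds integrin-linked kinase, from 16.70, 19.95 and 16.94 to 2.59, 2.16 and 2.69 TPM (log2 fold change -2.80, limma, adjusted p = 2.02e-07), Cytip, which binds the cytohesin that acts on LFA-1 (log2 fold change -2.65, limma, adjusted p = 8.35e-05), and Rasgrp2, the exchange factor for Rap1, (log2 fold change -1.95, limma, adjusted p = 2.98e-05). At 12h 12 of the 21 were higher and 1 lower, against 22.3% and 7.82% of all genes. After scaling 11 were higher at 12h and 4 lower, against 16.0% and 14.4%. Zyx and Parva were at most 0.03 TPM in each 0h library and reached the minimum only through induced libraries. Their places in these counts are not independent support, and both were named after their values were seen.

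Of 8 kinases downstream of integrins, 5 were tested, and at 48h 2 were higher and 1 lower, beside 15.9% and 27.2% of all genes; after scaling 3 were higher and 1 lower, beside 24.6% and 21.9%. Lyn, a Src family kinase of B and myeloid cells, rose from 7.21, 7.28 and 6.97 TPM at 0h to 33.62, 34.52 and 30.67 at 1h and was at 28.50, 37.24 and 34.92 at 48h (log2 fold change 2.21, limma, adjusted p = 3.65e-07). Ptk2b, the focal adhesion kinase relative Pyk2, was higher by 0.55 at 48h (limma, adjusted p = 0.0185), and Fyn fell by 1.11 on the log2 scale (limma, adjusted p = 0.00165). Fgr, a Src family kinase of mature phagocytes, was at most 0.15 TPM in any library and did not reach the minimum; it was named after its values were seen.

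The promoter of Itgam was captured on a restriction fragment of 8.96 kb, chr7:128056961-128065924, which also holds the starts of Gm49368 and Gm22809, so a contact cannot be given to Itgam alone. It had 15 listed contacts in uninduced cells, then 7, 11 and 25 after 1h, 12h and 48h. Over the 18175 captured fragments with a contact in any of the 4 lists, the median was 4 at each time point and the upper quartile 11 to 12. Captured fragments without a contact in any list are not among them. The Itgam count at 48h was less than 2-fold above that at 0h, and 18.0% of the 15157 fragments with a contact at 0h gained at least 2-fold. From 12h to 48h the count rose more than 2-fold, as it did for 14.6% of fragments (23.8% fell as much), and from 0h to 1h it fell more than 2-fold, as it did for 21.3%. Replicates were merged before the lists were made, so these counts have no error, and neighbouring fragments are not independent of each other. Only the 0h list holds scores, so it could not be checked that all 4 lists were cut alike. The depth of the lists was not compared.

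All 15 contacts at 0h and all 7 at 1h lay after the start of the gene, at 129 to 355 kb and 141 to 355 kb. At 12h 3 of the 11 lay before the start, and at 48h 9 of the 25 did. The 48h contacts reached from -92.5 to 245 kb from the start. Of the 32 fragments in any list, 4 were in all 4 lists and 11 in the 48h list alone. The 0h and 48h lists shared 9 fragments, 60% of the first and 36% of the second. Counting fragments within 10 kb of each other as shared gave 73.3% and 60%. All 11 fragments of the 12h list were also in the 48h list, which is 44% of the latter.

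The 9 fragments before the start at 48h included those at Pycard, the inflammasome adaptor ASC, at -68.5 kb and at Trim72 at -59.3 kb. The Pycard and Trim72 fragments and one at -37.5 kb were listed at 12h as well, whereas one at -14.1 kb was listed at 48h only. After the start, 1 fragment inside the Itgax gene, at 75.8 kb, was listed at 48h only. The fragment at 141 kb with the starts of Itgad and Cox6a2 was in all 4 lists, as were those at Armc5 and at Tgfb1i1 and 9130023H24Rik, at 175 and 181 kb, and one inside Itgad at 161 kb. The strongest 0h score, 14.49, was that of the fragment at 181 kb, and the others at 0h had scores from 5.12 to 9.87. Fragments with a start of Slc5a2 or of BC017158 were in the 0h list alone, another fragment inside BC017158, at 231 kb, was in the 48h list alone, and one at a start of Rgs10, at 355 kb, in the 0h and 1h lists. Another Rgs10 fragment, at 310 kb, and Gm6916, at 277 kb, were in the 0h list alone.

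**Figure D4:**
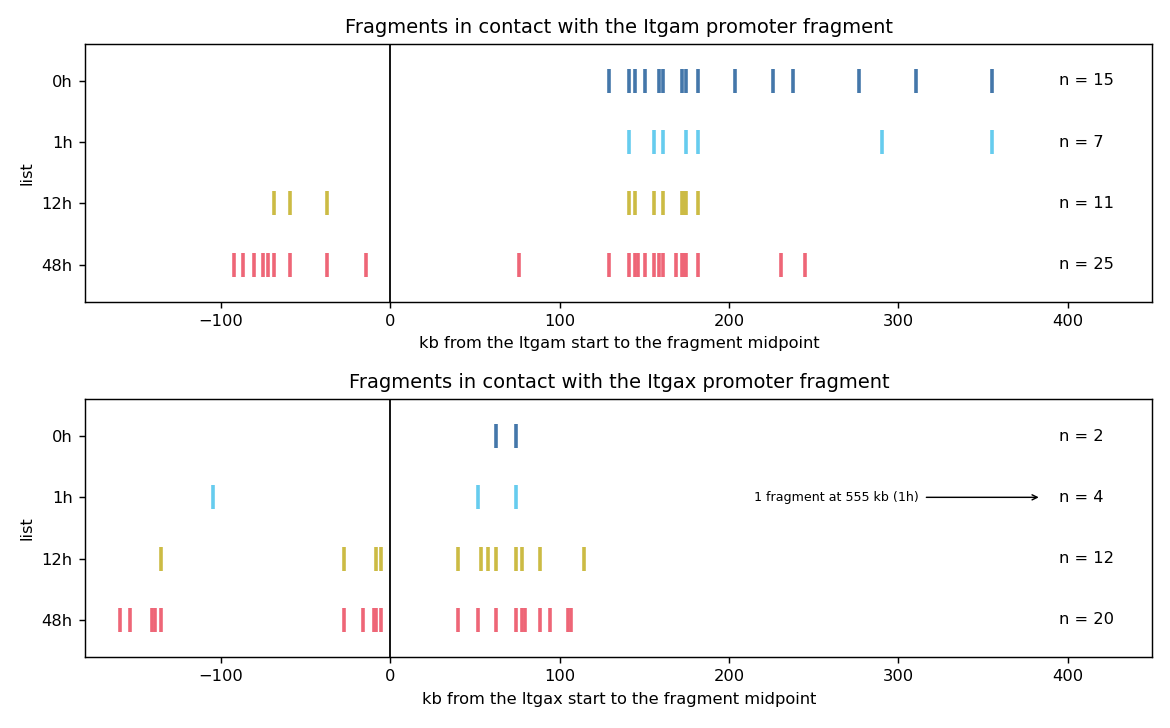
Midpoints of the fragments listed in contact with the promoter fragments of Itgam (top) and Itgax (bottom), in kb from each gene's start (horizontal axes), by list (vertical axes, hours of induction, replicates merged); n is the number of contacts. Marks to the left of 0 appear for Itgam at 12h (3) and 48h (9).

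Among the genes that start on these fragments, Cox6a2 and BC017158 fell at 48h. Cox6a2, a cytochrome oxidase subunit of muscle, was at 3.43 to 6.36 TPM at 0h and at most 0.11 at 48h (log2 fold change -5.25, limma, adjusted p = 2.67e-07), although its fragment stayed in all 4 lists. BC017158 fell by 1.55 (limma, adjusted p = 0.00131). Pycard had medians of 0.32 TPM at 0h and 0.51 at 48h, a log2 difference of 0.41 that did not pass (limma, adjusted p = 0.283) but was 0.77 after scaling (limma, adjusted p = 0.0289). Tgfb1i1, which encodes the paxillin relative Hic-5, went from a median of 0.12 to 0.32 TPM, a log2 difference of 0.89 (limma, adjusted p = 0.0572), or 1.25 after scaling (limma, adjusted p = 0.00993). Armc5, 9130023H24Rik, Slc5a2, Gm45205 and Gm6916 did not pass at 48h with either scaling. Trim72, Rgs10, Itgad and 6 other genes that start on these fragments (Gm26690, Gm15533, 4931431B13Rik, Gm44850, Mir3103 and, on the captured fragment, Gm49368) had a median of at most 0.15 TPM at every time point.

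The promoter fragment of Itgax, chr7:128127587-128135527, had 2 listed contacts in uninduced cells, then 4, 12 and 20 after 1h, 12h and 48h, so its count was at least 2-fold higher at each later time point; among all fragments with a 0h contact 14.2%, 16.5% and 18.0% gained as much. At 48h 10 of the 20 lay before its start, among them a fragment at Pycard and 5 between -27.1 and -5.36 kb, inside or just after the Itgam gene. Of its 20 partners at 48h, 12 were also partners of the Itgam fragment, 60% of the 20 and 48% of the 25. At 0h both of its partners were shared.

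The promoter fragment of Itga4 had 104, 80, 90 and 96 contacts at 0h, 1h, 12h and 48h, already past the upper quartile of the listed captured fragments at 0h. At 0h 102 of the 104 lay before the gene's start, and at 48h all 96. Of 113 fragments in any list 70 were in all 4, and 91 were shared by 0h and 48h (87.5% of the 0h list and 94.8% of the 48h list). Itgal had 7, 7, 9 and 7 contacts, Itgb2 6, 5, 3 and 3, Itgb1 9, 4, 6 and 10, Itgb7 8, 14, 11 and 10, Itga5 2, 3, 2 and 2, and Itgav 8, 7, 7 and 5. Itgb2, whose level rose at 12h and 48h, thus had fewer listed contacts at these times than at 0h. They were at least 2-fold fewer, as for 23.0% and 25.2% of the fragments with a contact at 0h. No contact between the promoter fragments of different members was listed at any time point, and no members shared a fragment.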

How the data were processed

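RNA-seq of 12 libraries and 4 PCHi-C lists were analysed; Hi-C was not analysed here. For RNA-seq, per the labels and the study's methods, the authors depleted rRNA, sequenced single-end reads, merged technical replicates, trimmed them with Trim Galore 0.6.2, mapped them to mm10 with HISAT2 2.1.0 and deposited TPM from RSEM. For PCHi-C the authors merged 2 replicates per time point and called interactions with CHiCAGO at a score of at least 5. The deposited 0h list holds these scores; the later deposited lists hold whole numbers whose unit is not given in the sources used here, and these were not used. TPM hold no record of depth, and read numbers were not used here. The study's differential test used DESeq2 on counts, which were not used here.

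Genes with a mean of at least 0.1 TPM entered 1 model of all 12 libraries on log2(TPM + 0.1), fitted in R 4.3.3 by limma 3.58.1 (lmFit, contrasts.fit and eBayes with trend), and p-values were adjusted by Benjamini-Hochberg over all genes tested; folds of low genes are understated on this scale. The model was tested on simulated data. Within-library ratios were compared by exact permutation tests. Other steps used Python 3.11.15, pandas 2.3.3, scipy 1.17.1 and matplotlib 3.10.9. A contact was assigned to a member if the captured fragment holds its start in GENCODE M21. Named genes are the 9 members, the 3 genes most similar to each, up to 4 called genes with the largest change at 48h from each integrin list (mean of at least 1 TPM over the 6 libraries of 0h and 48h) and genes starting on fragments in contact with the Itgam promoter. The values of 2 genes are not reported here. The members and lists were chosen with earlier results of these data known. Alternatives varied the pseudocount, filter, scaling, trend, libraries fitted, replicate block, replicates, fold threshold and contact definitions.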

Additional observations from a re-analysis of the deposited data

How the results depend on the processing

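The counts of called members at 12h and 48h kept their direction, but small counts moved with the settings. With a log2 fold change beyond 2 required, 0 members were higher at 1h, 4 at 12h and 4 at 48h, and 0 were lower from 12h to 48h. On median-of-ratios scaled TPM 1 was lower at 12h (Itgav) and 5 were higher from 12h to 48h (1 as deposited), or 3 when rescaled without the 20 most abundant genes, and Itgb1 from 12h to 48h reversed to 0.55. At 1h 1 member was lower (Itgam) with a pseudocount of 0.01 and with only the 6 libraries compared, and from 12h to 48h 2 were lower (Itgal and Itgb7) with a pseudocount of 1 and with only those 6. The log2 ratio of Itgb7 to Itgb1 reversed to -0.12 with a pseudocount of 1 and was 3.04 with 0.01; that of Itgam to Itgal was 1.88 and 5.67, and that of the 3 α chains to Itgb2 was -0.14 with a pseudocount of 1. Itgb7 and Itgam were near 0 TPM at 0h, where an added constant weighs most. Itgb2 was not near 0, with 1.17 to 1.60 TPM at 0h, so the 1 added was about as large as its level. The cause of the other shifts was not tested. A 0h score of at least 10 left 1 contact of Itgam in place of 15. Leaving out each replicate gave 2 to 3 members higher at 1h, 7 at 12h, 6 to 7 at 48h and 0 to 1 lower at 48h (Itgav, without 48h replicate 3).

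The deviations of same-numbered libraries from their group means correlated by -0.012 to 0.257 (7 of 18 pairs over 0.1) and those of differently numbered libraries by -0.181 to 0.110 (1 of 36 over 0.1). Because not every same-numbered pair was over 0.1, the samples were not treated as paired. The replicate 3 libraries stood apart in the data: 5 of their 6 pairs were over 0.1, and each correlated negatively with every library numbered 1 or 2. Deviations from a group mean cancel within the group, so the negative values follow in part from the positive ones. In the deposited labels the replicate 3 libraries also carry the last sample numbers, after all those of replicates 1 and 2. What that numbering stands for is not stated. With only replicates 1 and 2 at every time point, an alternative chosen after seeing the data, 2 members were higher at 1h, 5 at 12h and 6 at 48h, and Itgax at 12h (limma, adjusted p = 0.0593) and Itgb7 at 12h and 48h (limma, adjusted p = 0.102 and 0.359) lost their calls. With the replicate block 2 members were higher at 1h, 7 at 12h, 6 at 48h and 1 from 12h to 48h; Itgb7 at 48h lost its call (2.17, limma, adjusted p = 0.0557), and no other call of a member changed. The exact paired permutation test of the ratios gave p = 0.5 for Itgb7 to Itgb1 and for Itga5 to Itga4, and for the other 2 ratios p = 0.25, the smallest that 3 pairs allow.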
